A study of Mus musculus with 13 samples.

Results

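The Wnt genes described here are 54 mouse genes, chosen by their place in the pathway, that cover Wnt ligands, the proteins that mature and release them, R-spondins, receptors, secreted inhibitors, intracellular transducers, and targets that feed back on the pathway. All 54 of them are among the 21100 genes of the expression table. Of these, 48 could be tested between the 2 tumor models. Another 5 genes (Wnt2, Wnt16, Rspo3, Sfrp4, and Sp5) had too few counts, and Wnt3 had a value in 1 model alone.

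Wnt ligands are lipid-modified secreted proteins that bind frizzled receptors and the co-receptors Lrp5 and Lrp6. Binding stops the destruction of β-catenin, which then enters the nucleus and works with DNA-binding factors of the TCF/LEF family. Some of the genes switched on in this way, such as Axin2, Nkd1, Rnf43, Znrf3, Notum, and Apcdd1, encode proteins that dampen the signal again. In skin the pathway is best known for its part in the formation of hair follicles and in their growth cycle. Basal cell carcinoma (BCC) is a skin cancer driven by Hedgehog signaling, for which Ptch1 encodes an inhibitory receptor.

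GEM-BCC tumors were intradermal tumors of female Ptch1+/- K14-CreER2 p53fl/fl mice, induced by 3 injections of 300 µg tamoxifen and 1 X-ray dose of 4 Gy. In these mice the K14 promoter limits the tamoxifen-activated Cre to basal epithelial cells. The group has 9 tumors from 7 mice, where GEM2 and GEM3 came from the same animal, as did GEM7 and GEM8. Tp-BCC tumors (n = 4, TP1 to TP4, 1 per mouse) were subcutaneous tumors in the right flank of female Ptch1+/-p53fl/fl mice given 2000000 cells of a passaged line. That line descends from 1 GEM-BCC tumor, so the Tp-BCC tumors are replicates of a single tumor of origin. The mice of both models thus carry the Ptch1+/- and p53fl/fl alleles, and their ages are not given in the labels. The paper states that after tamoxifen Cre removes p53 in K14-expressing cells of GEM-BCC mice, the source of the passaged line. The genotype given for Tp-BCC host mice lists no Cre. Poly(A) RNA was sequenced to 28075317 to 32629102 expected counts per GEM-BCC tumor and 15388027 to 17494912 per Tp-BCC tumor. The labels put GEM-BCC samples in batch 1 and Tp-BCC samples in batch 2, so model and batch cannot be told apart. In whole tumors, fewer cells of a type and less RNA per cell cannot be told apart either.

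The comparison asked which parts of the pathway differ between transplanted and induced tumors. In Tp-BCC tumors the nuclear factors Lef1 and Tcf7 and the feedback genes Nkd1 and Apcdd1 were higher by 4.94 to 7.96 times, with no overlap between models. The frizzled receptor Fzd2, the secreted inhibitor Frzb, and the scaffold Axin1 were higher by smaller factors. The R-spondin Rspo1, the secreted inhibitors Sfrp5 and Wif1, and the feedback gene Rnf43, a ligase that removes receptors, were lower. The feedback genes Axin2, Nkd2, and Znrf3 did not pass the threshold by edgeR. None of the 11 Wnt ligands tested passed the threshold by edgeR, where 11.1% of all tested genes were higher and 8.35% lower.

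Calls rest on edgeR's quasi-likelihood test over all 14390 testable genes, with a threshold of 0.05 on the Benjamini-Hochberg adjusted p-value. At this threshold 7 of the 48 genes were higher in Tp-BCC and 4 were lower, where 11.1% of all tested genes were higher and 8.35% lower. With the study's additional demand of a log2 fold change beyond 2 in size, 4 Wnt genes were higher (2.36% of all tested genes) and 2 were lower (3.21%). The median log2 fold change (Tp-BCC over GEM-BCC) was −0.14 over the 48 genes and −0.03 over all tested genes, and 21 of the 48 had a value above 0. The models did not overlap in CPM for 5 genes that were higher in Tp-BCC (5.50% of all tested genes) and for 3 that were lower (4.45%). Receptors, secreted inhibitors, transducers, and feedback genes each held fold changes of both signs, as the plot of fold changes by role shows.

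**Figure D1:**
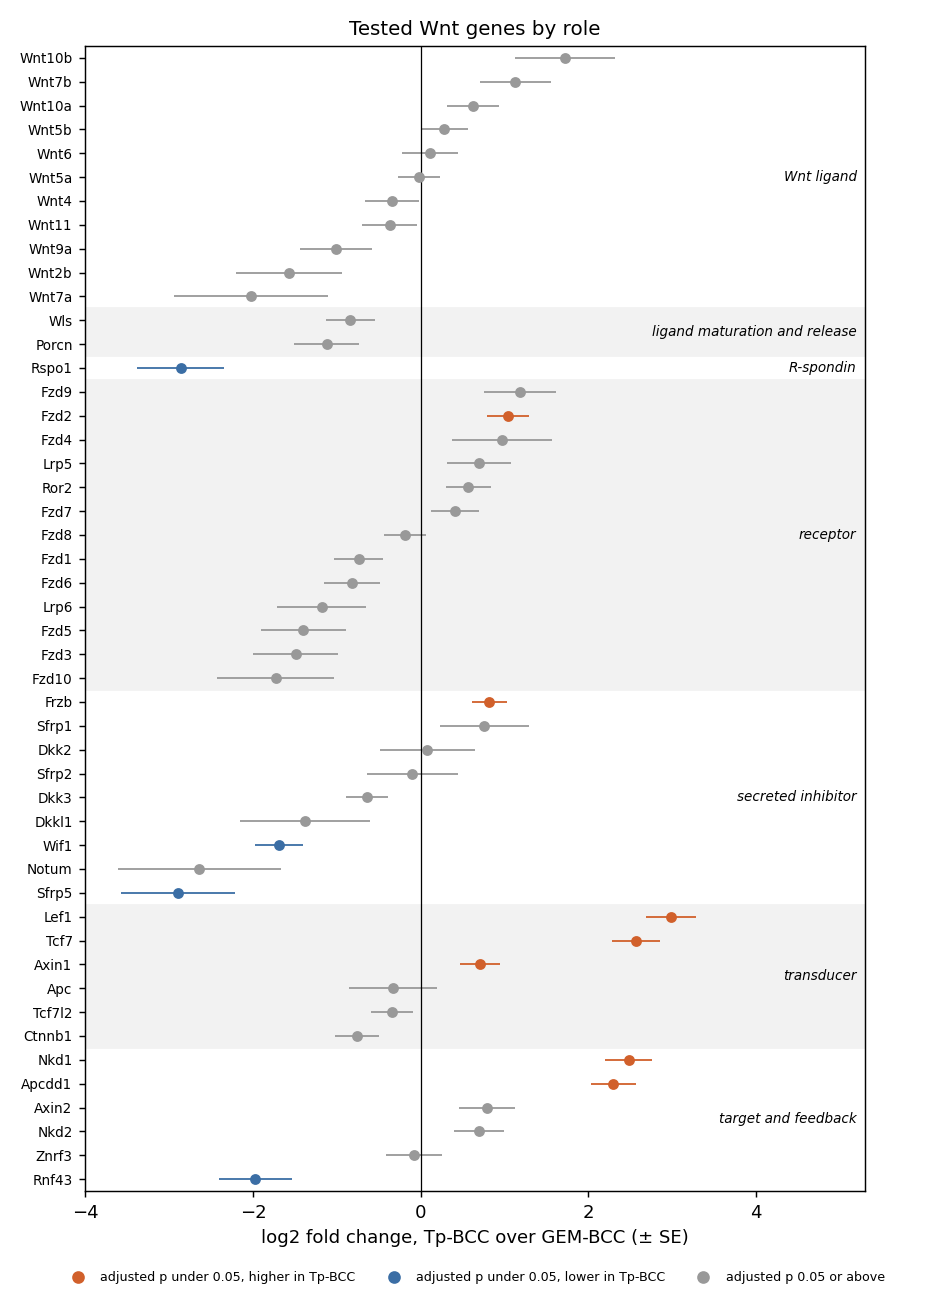
Log2 fold change of each of the 48 tested Wnt genes (x axis, Tp-BCC over GEM-BCC, with its SE from edgeR), grouped by role on the y axis. Lef1 lies farthest to the right at 2.99 and Sfrp5 farthest to the left at −2.89. The points of Notum and Dkkl1 are fitted values that rest on 3 or fewer counts in every Tp-BCC tumor.

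Lef1 and Tcf7 encode DNA-binding partners of β-catenin. Lef1 measured 26.3, 42.7, 22.9, and 28.2 CPM (counts scaled to library size) in TP1 to TP4, against a lowest value of 1.20, a median of 4.14, and a highest value of 5.19 CPM among the GEM-BCC tumors. Every Tp-BCC tumor was above every GEM-BCC tumor, and GEM6 was the lowest of all. The log2 fold change of Lef1 was 2.99 (SE 0.30, edgeR adjusted p = 1.01e-05). Tcf7 stood at 101.6, 181.6, 85.8, and 141.1 CPM in TP1 to TP4 and between 12.2 and 37.2 CPM, with a median of 23.6, in GEM-BCC. Again the groups were apart, and the fold change was 2.57 (SE 0.29, adjusted p = 2.40e-05). Tcf7l2, another member of the family, did not pass (−0.34, SE 0.25, adjusted p = 0.347). Per kb of transcript, the mean level of Tcf7 was 8.68 ± 3.24 (SD, n = 9) in GEM-BCC and 51.6 ± 17.4 (n = 4) in Tp-BCC, while that of Tcf7l2 was 22.2 ± 5.92 and 17.6 ± 4.24. Tcf7l2 thus stood above Tcf7 in the mean of GEM-BCC tumors and below it in Tp-BCC tumors. Lef1 and Tcf7 are also active in T cells. The 7 T cell markers with a value, of 8 listed, summed to 0.791 to 5.999 CPM in GEM-BCC and 1.53 to 2.498 CPM in Tp-BCC tumors. Of these, 2 could be tested and 0 were called. Cd3d, Cd3e, and Cd3g were each at 0.214 CPM or less in every Tp-BCC tumor, while Cd4 was at 0.765 to 1.41 CPM. The part of T cells in the Lef1 and Tcf7 results was not tested.

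Nkd1 and Apcdd1 were the feedback genes that rose with them. Nkd1, a cytoplasmic inhibitor that binds Dishevelled, measured 96.7, 177.7, 94.9, and 194.5 CPM in TP1 to TP4. In GEM-BCC tumors it ran from 12.96 in GEM8 to 39.9 in GEM3, with a median of 24.8 CPM. The fold change was 2.48 (SE 0.28, adjusted p = 3.02e-05), without overlap. Apcdd1, a membrane inhibitor that binds Wnt and LRP proteins and is expressed in hair follicles, stood at 241.8, 443.1, 199.8, and 346.6 CPM in Tp-BCC. Its GEM-BCC values were 33.7 to 91.3 CPM with a median of 68.6, so the lowest Tp-BCC tumor again exceeded the highest GEM-BCC tumor. The fold change was 2.30 (SE 0.27, adjusted p = 4.15e-05). For each of these 4 genes TP2 and TP4 were the highest Tp-BCC tumors, and TP3 was the lowest.

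The other feedback genes differed less. Axin2, the feedback gene most often used as a readout of β-catenin activity, measured 18.2, 39.7, 22.2, and 37.7 CPM in TP1 to TP4 and 8.13 to 29.5 CPM, with a median of 14.8, in GEM-BCC. The ranges overlapped, and the log2 fold change of 0.79 (SE 0.33) did not pass (adjusted p = 0.0985). Nkd2 had a fold change of 0.70 (adjusted p = 0.116, or 0.0467 with counts summed per mouse) and Znrf3, a ligase that removes frizzled from the cell surface, one of −0.08 (adjusted p = 0.881). Rnf43, the partner of Znrf3 in this task, was lower at 3.36, 4.76, 3.05, and 2.43 CPM in Tp-BCC against 4.21 to 24.8 CPM with a median of 11.4 in GEM-BCC. Only GEM3 lay within the Tp-BCC range, and the fold change was −1.97 (SE 0.43, adjusted p = 0.006). The target gene Sp5 had no count in any GEM-BCC tumor and 1 count in TP1, so a change could not be measured.

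**Figure D2:**
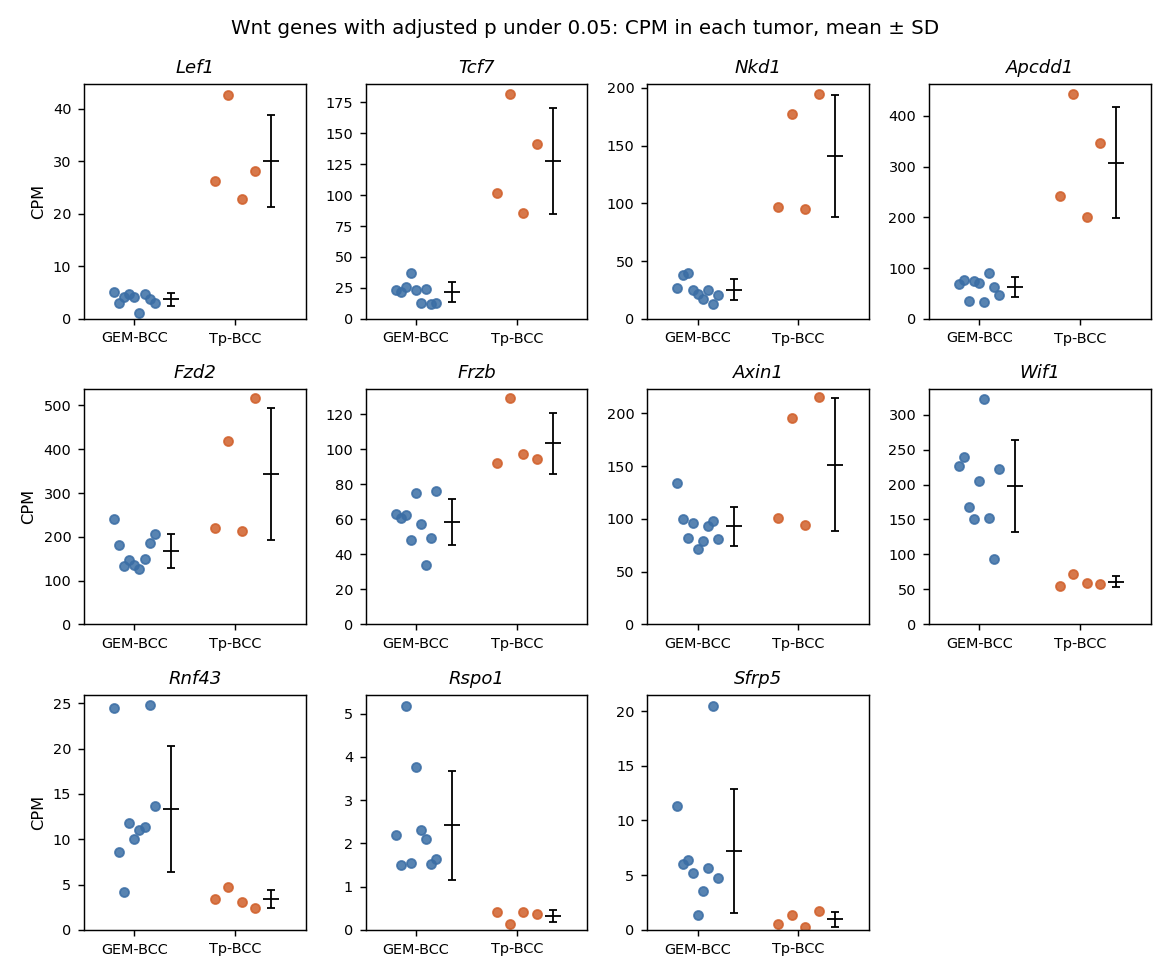
CPM (y axis, linear, from 0) of the 11 Wnt genes with an adjusted p-value under 0.05 in each of the 9 GEM-BCC tumors (blue) and 4 Tp-BCC tumors (orange). Bars give the mean ± SD, and the panels run from the highest to the lowest log2 fold change, with Lef1 first and Sfrp5 last.

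Because Lef1, Tcf7, and Nkd1 moved together, their promoter windows are shown, along with that of Sp5, a target gene that stayed near 0. Apcdd1 moved with them too, but no window matched it. The windows are RefSeq sequences of build GRCm38.p6 that reach from 250 bases before a transcription start to 50 bases after it. Capitals mark the TCF/LEF core words searched, which were CTTTG followed by 2 bases that are each A or T, on either strand. For Lef1 the window with a core word is given out of 4 windows, and for Tcf7 1 of 2.

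Lef1, chr3:131156044-131156343, + strand: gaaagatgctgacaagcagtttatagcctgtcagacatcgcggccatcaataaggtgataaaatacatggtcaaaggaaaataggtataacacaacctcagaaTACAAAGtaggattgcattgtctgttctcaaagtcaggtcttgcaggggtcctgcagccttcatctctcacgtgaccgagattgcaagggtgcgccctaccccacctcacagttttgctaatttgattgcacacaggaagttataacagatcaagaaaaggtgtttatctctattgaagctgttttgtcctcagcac

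Tcf7, chr11:52282546-52282845, - strand: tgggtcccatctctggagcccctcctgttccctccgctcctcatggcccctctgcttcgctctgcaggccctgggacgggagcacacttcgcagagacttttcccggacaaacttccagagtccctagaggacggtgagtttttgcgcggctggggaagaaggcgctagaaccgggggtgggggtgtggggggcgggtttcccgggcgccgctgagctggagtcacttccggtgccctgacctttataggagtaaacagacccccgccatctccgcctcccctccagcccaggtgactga

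Nkd1, chr8:88527383-88527682, + strand: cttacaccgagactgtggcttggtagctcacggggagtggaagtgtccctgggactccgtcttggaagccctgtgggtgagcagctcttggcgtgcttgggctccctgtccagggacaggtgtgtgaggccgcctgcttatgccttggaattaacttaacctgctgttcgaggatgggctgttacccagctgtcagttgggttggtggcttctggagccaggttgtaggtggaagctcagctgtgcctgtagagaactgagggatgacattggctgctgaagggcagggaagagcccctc

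Sp5, chr2:70474673-70474972, + strand: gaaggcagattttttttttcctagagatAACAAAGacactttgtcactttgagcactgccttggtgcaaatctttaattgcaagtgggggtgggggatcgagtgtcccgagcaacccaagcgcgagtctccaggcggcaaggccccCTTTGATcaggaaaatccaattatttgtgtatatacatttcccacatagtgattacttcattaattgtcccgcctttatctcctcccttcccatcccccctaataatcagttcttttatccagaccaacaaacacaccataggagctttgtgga

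The Lef1 window held 1 word, 147 bases before an internal start, and the 3 windows at its other starts held none. The windows of Tcf7, Nkd1, and Axin2 held no core word, and that of Sp5 held 2, at 222 and 104 bases before its start. RefSeq windows matched 35 of the 54 Wnt genes, and 7 of these (20%) had a word in at least 1 window, against 18.9% of all 27025 genes with a window. These matches describe letters in short windows and do not show binding.

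Of the 10 secreted inhibitors 9 were tested, and 2 were lower and 1 was higher. Of all tested genes, 8.35% were lower and 11.1% higher. Wif1, which binds Wnt ligands directly, measured 54.9, 72.4, 59.0, and 58.2 CPM in TP1 to TP4 and 93.0 to 323.0 CPM, with a median of 204.5, in GEM-BCC. No GEM-BCC tumor came down to the Tp-BCC range, and the fold change was −1.69 (SE 0.29, adjusted p = 9.53e-04). Per kb Wif1 had the highest mean of the inhibitors in GEM-BCC tumors (86.2 ± 28.9 CPM per kb, n = 9). In Tp-BCC its mean (26.7 ± 3.37, n = 4) ranked behind those of Sfrp1 (91.7 ± 25.0) and Frzb (32.8 ± 5.58). In GEM-BCC the spread of Sfrp1 (54.1 ± 40.2) reached that of Wif1, and Sfrp1 was the higher of them per kb in GEM1, GEM4, GEM8, and GEM9.

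Sfrp5, a frizzled-related decoy that is also secreted by fat, was low in both models. It measured 0.530, 1.35, 0.299, and 1.71 CPM in TP1 to TP4 and 1.37 to 20.5 CPM, with a median of 5.63, in GEM-BCC. The highest Tp-BCC tumor lay just above the lowest GEM-BCC tumor, and the fold change was −2.89 (SE 0.68, adjusted p = 0.00926). Frzb, another frizzled-related decoy, was higher in Tp-BCC at 92.1, 129.5, 97.5, and 94.2 CPM, against 33.7 to 76.1 CPM with a median of 61.0 in GEM-BCC. The groups did not overlap and the fold change was 0.82 (SE 0.21, adjusted p = 0.0123), but without TP2 the adjusted p was 0.0782.

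The remaining inhibitors gave no call outside the alternative fits. Sfrp1, the inhibitor with the highest CPM over all tumors, stood at 395.3, 498.3, 460.2, and 249.9 CPM in TP1 to TP4. In GEM-BCC it ran from 50.8 in GEM3 to 491.1 in GEM1 with a median of 243.2 CPM. The ranges overlapped widely, and the fold change was 0.76 (SE 0.53, adjusted p = 0.327). Dkk3 had a fold change of −0.64 (adjusted p = 0.0881, or 0.0459 with the GC trend removed). Sfrp2 had one of −0.10 (adjusted p = 0.919), and Dkk2, which binds Lrp co-receptors, one of 0.08 (adjusted p = 0.936). Notum, an enzyme that removes the lipid from Wnt ligands, had between 1 and 25 counts in a GEM-BCC tumor and at most 2 in a Tp-BCC tumor. With 3 counts set in each Tp-BCC tumor, the bound on the ratio of means was 1.71-fold lower in Tp-BCC. This bound leaves out variation between tumors, the models overlapped, and Notum was not called (adjusted p = 0.0681, or 0.0318 with the GC trend removed). For Dkkl1 the same bound was 1.33-fold lower, again with overlap and no call (adjusted p = 0.221). The median fold change of the 9 tested inhibitors was −0.64, or −0.41 with both bounds in place of fitted values. Sfrp4 never exceeded 5 counts in GEM-BCC but had 24, 4, 23, and 18 counts in TP1 to TP4. In CPM its Tp-BCC values all exceeded those of GEM-BCC, and when the filter on low counts was dropped it was called (3.72, SE 0.64, adjusted p = 0.00101).

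The R-spondins raise the response to Wnt by holding Rnf43 and Znrf3 away from frizzled receptors. Rspo1 measured 0.412, 0.129, 0.419, and 0.357 CPM in TP1 to TP4, from 2 to 7 counts per tumor, and 1.49 to 5.19 CPM with a median of 2.10 in GEM-BCC, from 41 to 164 counts. All Tp-BCC tumors lay below all GEM-BCC tumors, and the fold change was −2.86 (SE 0.52, adjusted p = 0.00173). Rspo3 had 0 to 5 counts in any tumor and was not tested.

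Of the 14 Wnt ligands, 11 were tested and 0 were called by edgeR, where 11.1% of all tested genes were higher and 8.35% lower. Their median fold change was −0.02. An unadjusted edgeR p-value under 0.05 was found for 5 of the 11, a count for which the share of all genes is not given here. DESeq2 called 3, which were Wnt7b (higher), Wnt2b, and Wnt7a (both lower), where it called 13.1% of all tested genes higher and 12.9% lower. Wnt7b is a ligand expressed in the epidermis and in growing hair follicles. It had the highest CPM of any ligand, at 187.8, 330.3, 144.1, and 440.9 CPM in TP1 to TP4 and 41.0 to 258.4 CPM with a median of 119.5 in GEM-BCC. TP2 and TP4 exceeded every GEM-BCC tumor while TP1 and TP3 fell within their range, and the fold change was 1.13 (SE 0.42, adjusted p = 0.0705). Per kb, Wnt7b ranked first in both models and Wnt6, an epithelial ligand, second. The other ligands stayed at or under 8.76 CPM per kb on average. Wnt7b made up 51.8% to 61.4% of the per-kb sum of all 13 ligands with values in each Tp-BCC tumor and 17.4% to 49.4% in GEM-BCC tumors, a share chosen after its values were seen and not tested.

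Wnt5a and Wnt5b, ligands that often act without β-catenin, had fold changes of −0.02 (SE 0.25, adjusted p = 0.971) and 0.28 (SE 0.28, adjusted p = 0.496), whose signs turned with the GC trend removed (0.35 and −0.11), as did that of Wnt6 (from 0.11 to −0.28). Wnt10b, a ligand of the hair placode, had 16 counts at most in either model, with a fold change of 1.72 (SE 0.60, adjusted p = 0.056, or 0.0433 with the GC trend removed). The largest negative fold changes among ligands were those of Wnt7a (−2.02, SE 0.92, adjusted p = 0.131) and Wnt2b (−1.57, SE 0.63, adjusted p = 0.091). Wnt2b passed with counts summed per mouse (adjusted p = 0.0356) and with the GC trend removed (adjusted p = 0.0475), and Wnt9a passed with the latter (−1.36, adjusted p = 0.0134). Wnt4, Wnt6, Wnt9a, Wnt10a, and Wnt11 had fold changes of −1.01 to 0.62 and adjusted p-values of 0.106 to 0.841. Wnt7a and Wnt2b varied widely in GEM-BCC tumors, with Wnt2b at 2.27 CPM in GEM8 and 27.0 CPM in GEM9. Wnt3 had 0 to 2 counts in GEM-BCC tumors and no value in Tp-BCC tumors. Wnt2 reached at most 16 counts and Wnt16 at most 21, the latter in GEM4.

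Porcn attaches the lipid that every Wnt ligand needs, and Wls carries the finished ligand to the cell surface. Wls measured 174.0, 99.8, 165.9, and 52.3 CPM in TP1 to TP4 and 150.7 to 295.6 CPM with a median of 213.5 in GEM-BCC. TP2 and TP4 lay below every GEM-BCC tumor, TP1 and TP3 did not, and the fold change of −0.84 (SE 0.29) had an adjusted p of 0.0524. It passed without GEM1, GEM6, TP1, or TP3 (adjusted p-values of 0.0357 to 0.0483). For Porcn the fold change was −1.12 (SE 0.39, adjusted p = 0.0532). With the trend between expression and GC content removed from each tumor, Porcn passed (−1.49, adjusted p = 0.0046) and Wls did not (−0.39, adjusted p = 0.192).

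**Figure D3:**
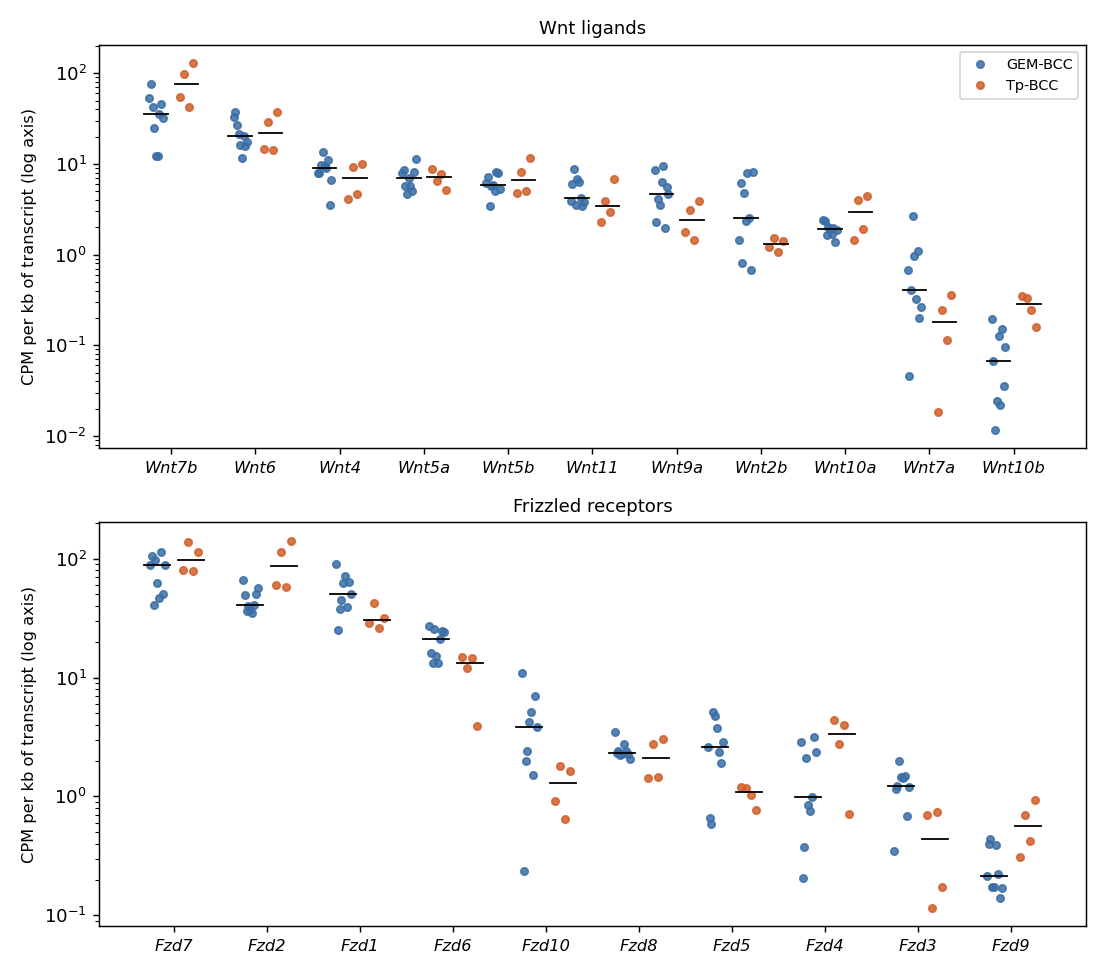
CPM per kb of transcript (log axis) of the 11 tested Wnt ligands and the 10 frizzled receptors in each GEM-BCC (blue) and Tp-BCC (orange) tumor, ordered by their mean. Black lines are medians. Wnt7b and Fzd7 have the highest means, and of all genes plotted only Fzd2 passed the threshold.

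Of the 13 receptors, all of them tested, 1 was called higher and 0 lower, where 11.1% of all tested genes were higher and 8.35% lower. Fzd2 measured 220.1, 419.3, 213.3, and 517.8 CPM in TP1 to TP4 and 127.1 to 240.2 CPM, with a median of 148.3, in GEM-BCC. GEM1 overlapped with TP1 and TP3, and the fold change was 1.04 (SE 0.25, adjusted p = 0.0104). Without TP4 it was 0.71 and did not pass (adjusted p = 0.0532), and without TP2 and TP4 it was 0.38 (adjusted p = 0.296). Fzd7 was the receptor with the highest CPM, at 363.8, 622.6, 353.2, and 511.1 CPM in Tp-BCC and 185.9 to 512.9 CPM with a median of 401.8 in GEM-BCC. TP2 alone exceeded the GEM-BCC range, and the fold change was 0.41 (SE 0.29, adjusted p = 0.328).

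As a share of the per-kb sum of the 10 frizzled genes, Fzd2 held 31.1% to 47.6% in Tp-BCC and 18.1% to 26.8% in GEM-BCC tumors, while Fzd1 held 10.6% to 14.9% and 12.6% to 39.5%, which overlap. These shares were chosen after their values were seen and were not tested. Fzd1 (−0.74, adjusted p = 0.0888), Fzd3 (−1.49, adjusted p = 0.0535), Fzd5 (−1.40, adjusted p = 0.065), Fzd6 (−0.82, adjusted p = 0.0892), and Fzd10 (−1.73, adjusted p = 0.0923) had negative fold changes that did not pass. With counts summed per mouse, which joins the tumors that share an animal, Fzd5 (−1.59, adjusted p = 0.0299) and Fzd10 (−1.86, adjusted p = 0.0296) passed. The co-receptors Lrp5 (0.70, adjusted p = 0.208) and Lrp6 (−1.18, adjusted p = 0.129) had fold changes of opposite sign, and neither passed. Ror2, a receptor for Wnt5a, had one of 0.57 (adjusted p = 0.15). Fzd4 (0.97), Fzd8 (−0.19), and Fzd9 (1.18) had adjusted p-values of 0.0653 to 0.612.

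Among the intracellular transducers besides Lef1 and Tcf7, Axin1 was called. Axin1, a scaffold of the complex that destroys β-catenin, measured 100.6, 195.5, 94.4, and 215.9 CPM in TP1 to TP4 and 71.9 to 134.3 CPM, with a median of 93.3, in GEM-BCC. TP1 and TP3 lay within the GEM-BCC range, and the fold change was 0.71 (SE 0.24, adjusted p = 0.0468). It missed the threshold in 16 of 25 alternatives, among them counts summed per mouse (0.0717) and the fits without any one of GEM2 to GEM9, TP2, or TP4 (adjusted p-values of 0.0596 to 0.216), and was 0.07 without TP2 and TP4 (adjusted p = 0.854). Ctnnb1, which encodes β-catenin, measured 1309, 908.7, 1226, and 452.2 CPM in Tp-BCC against 1330 to 2129 CPM with a median of 1520 in GEM-BCC. All Tp-BCC tumors lay below all GEM-BCC tumors, TP1 by a small margin, but the fold change of −0.76 (SE 0.26) had an adjusted p of 0.053, or of 0.0401 to 0.0448 without GEM1, TP1, or TP3. By DESeq2 the adjusted p was 0.0167. The paper, which used DESeq2, lists Ctnnb1 with an adjusted p under 0.05 but not past its fold threshold. Apc, another part of the destruction complex, ranged from 6.42 CPM in TP4 to 100.9 in TP3, a wider range than in GEM-BCC (34.5 to 78.5), and its fold change was −0.33 (SE 0.52, adjusted p = 0.687).

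The 76 other genes of the pathway gave 12 higher and 7 lower among 69 tested, with a median fold change of 0.18, beside 11.1% and 8.35% of all tested genes. The highest fold changes were those of Rspo4, Celsr3, Myc, Sost, and Dkk1. Rspo4, another R-spondin, measured 7.48, 12.6, 6.22, and 10.8 CPM in TP1 to TP4 and 0.0647 to 1.35 CPM with a median of 0.415 in GEM-BCC (4.11, SE 0.62, adjusted p = 4.29e-04). It thus moved opposite to Rspo1, and its models did not overlap either. Myc, a growth-promoting target of β-catenin among other inputs, stood at 107.2, 164.9, 98.7, and 141.2 CPM in Tp-BCC and 25.1 to 56.1 CPM with a median of 32.3 in GEM-BCC (1.79, SE 0.24, adjusted p = 1.48e-04). Sost (1.77, adjusted p = 0.00154) and Dkk1 (1.38, adjusted p = 0.0181), secreted antagonists that bind Lrp5 and Lrp6, were higher as well, and Dkk1 missed the threshold without TP2 (adjusted p = 0.0555). Celsr3, a cadherin of the planar polarity branch, had a fold change of 2.51 (adjusted p = 0.00293) at 2.12 CPM or less in every tumor.

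The lowest fold changes were those of Celsr1, Dact2, Gpc3, Lgr4, and Ror1. Celsr1, the planar polarity cadherin of the epidermis, measured 1.83, 4.44, 2.33, and 5.71 CPM in TP1 to TP4 against 51.1 to 272.7 CPM with a median of 164.9 in GEM-BCC. This was the largest change in either list, at −5.54 (SE 0.57, adjusted p = 1.26e-05), and no GEM-BCC tumor came near the Tp-BCC values. The R-spondin receptor Lgr4 was lower at 226.9, 114.2, 271.9, and 37.4 CPM in Tp-BCC against 89.0 to 788.0 CPM with a median of 547.2 in GEM-BCC (−1.74, SE 0.51, adjusted p = 0.0276). GEM3 was the 1 GEM-BCC tumor within the Tp-BCC range, and Lgr4 missed the threshold without TP2 (adjusted p = 0.0892) or TP4 (0.0629). Gpc3, a glypican of the cell surface, fell by 1.89 (adjusted p = 0.00618), Dact2, a Dishevelled-binding antagonist, by 3.58 (adjusted p = 0.0179, and 0.0505 without TP1), and Ror1, a Wnt5a receptor, by 1.60 (adjusted p = 0.0422). Ror1 missed the threshold without any one of GEM2, GEM4, GEM7, GEM8, GEM9, and the 4 Tp-BCC tumors, with adjusted p-values of 0.0555 to 0.101.

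Variation among tumors of 1 model was large for many Wnt genes. GEM2 and GEM3 grew on the same mouse but differed by more than 1 on the log2 scale in 17 of the 48 tested genes, and GEM7 and GEM8 did so in 15. Wnt2b was higher in GEM2 than in GEM3 by 2.88 (log2) and Fzd10 lower by 2.96. GEM1 had the highest value of its model for 12 of the 48 genes and GEM3 the lowest for 13. For these counts the share of all tested genes is not given here, so they do not set Wnt genes apart from other genes. Lef1, Tcf7, and Nkd1 differed by less than 1 on the log2 scale within both pairs of tumors, and Apcdd1 differed by 1.07 between GEM2 and GEM3.

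In the Tp-BCC tumors the values split into 2 pairs, TP1 with TP3 and TP2 with TP4, along the GC content of the transcripts. Across 14095 genes, the log2 CPM of a tumor relative to the mean of all tumors had a Spearman rho with GC content of −0.40 in TP1 and −0.48 in TP3, and of 0.60 in TP2 and 0.61 in TP4. In GEM-BCC tumors rho was 0.36 in GEM1 and −0.32 to −0.14 in the others. These values describe genes measured in the same libraries. The strongest reductions in TP2 and TP4 were in Wnt genes of low GC content. The mean log2 CPM of TP2 and TP4 minus that of TP1 and TP3 was −3.29 for Apc (44.3% GC), −2.29 for Fzd3 (40.3%), −2.26 for Dkk2 (45.7%), and −1.91 for Lrp6 (46.0%). The difference was 1.21 for Wnt7b (59.4%), 1.10 for Fzd2 (56.6%), and 1.08 for Axin1 (56.6%), and between 0.50 and 0.96 for Lef1, Tcf7, Nkd1, and Apcdd1. With the trend removed, the log2 fold changes of Lef1, Tcf7, Nkd1, and Apcdd1 were 2.95, 2.45, 2.30, and 2.67, and each kept an adjusted p of 3.70e-05 or less. The part of the GC trend in the other Wnt results was not tested beyond this alternative.

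**Figure D4:**
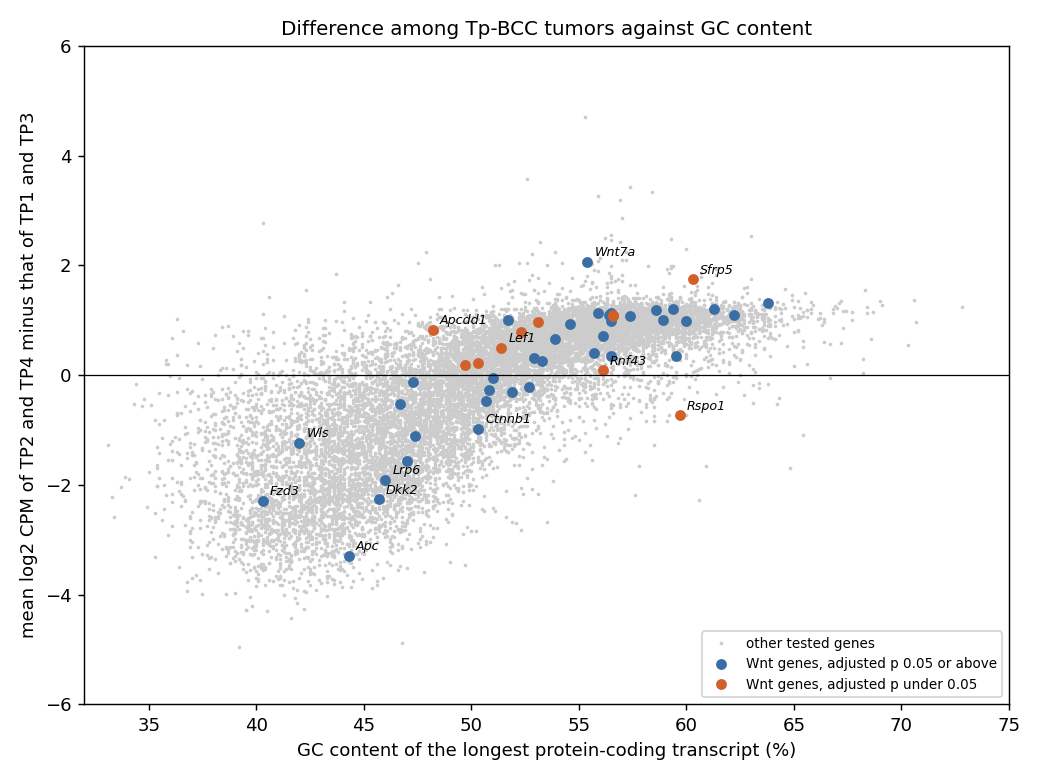
Mean log2 CPM of TP2 and TP4 minus that of TP1 and TP3 (y axis) against the GC content of the longest protein-coding transcript in percent (x axis), for all tested genes (grey) and the 48 tested Wnt genes (blue, or orange where the adjusted p-value was under 0.05). Most points rise from left to right, with Apc lowest among the Wnt genes at −3.29 (44.3% GC) and Wnt7a highest at 2.07 (55.4%), while Rspo1 at 59.7% lies at −0.73.

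Markers of cell types that a tumor sample can hold also moved with the model. The counts of called markers below stand beside 11.1% of all tested genes higher and 8.35% lower. All 5 tested adipocyte markers of 7 listed were higher in Tp-BCC, and the list summed to 17.5 to 249.1 CPM there and to 0.791 to 5.39 CPM in GEM-BCC. Endothelial markers were higher in 3 of 8, with sums of 316.6 to 381.2 against 103.5 to 259.7 CPM. Hair follicle markers were lower in 4 of 9 tested (36.6 to 66.9 against 86.2 to 382.2 CPM), among them the companion layer keratin Krt75. Markers of differentiated keratinocytes were lower in 2 of 7 tested (59.5 to 103.4 against 145.2 to 527.2 CPM). Markers of the dermal papilla, a known site of Lef1 expression, and of the dermal sheath were higher in 2 of 8 (612.7 to 927.8 against 296.0 to 696.9 CPM). Much of this sum was Hhip, which the paper lists among Hedgehog genes, at 455.8, 421.2, 528.8, and 306.4 CPM in TP1 to TP4. Of the list only Alx4 was above every GEM-BCC tumor in all Tp-BCC tumors. Sox2 stood at 2.65, 1.61, 2.63, and 3.50 CPM in TP1 to TP4 and 0.0632 to 2.06 CPM in GEM-BCC, so that TP2 overlapped. Trps1 was at 137.3, 20.6, 194.2, and 20.1 CPM in TP1 to TP4 and 26.3 to 62.3 CPM in GEM-BCC. Corin, Prdm1, Itga8, and Crabp1 also overlapped between models. Of the 12 fibroblast markers 5 were higher, among them Pdgfra (2.14) and Fbln1 (1.88), and 2 were lower, while their sum overlapped between models. Pdgfra stood at 1562, 749.9, 1552, and 245.3 CPM in TP1 to TP4 and 181.2 to 399.4 CPM in GEM-BCC, so that TP4 overlapped. Dpt was at 8.21 to 15.6 CPM in Tp-BCC tumors, below the 17.7 to 67.3 CPM of GEM-BCC tumors. Of the 7 basal epithelial markers Col17a1 was higher (2.00) and Krt15 lower (−4.03), and their sum overlapped at 8808 to 15371 CPM in GEM-BCC and 5980 to 14690 CPM in Tp-BCC tumors. No basal epithelial marker was at 0 in all Tp-BCC tumors. The part of these cell types in the Wnt results was not tested.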

How the data were processed

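RNA of 13 mouse tumors was sequenced after oligo(dT) selection. The authors aligned reads with Bowtie2 2.3.4.3 and quantified them with RSEM 1.3.1 against GRCm39 per the labels, and deposited expected counts per gene, neither rounded nor normalized. Here, counts were rounded, and genes with a value in all 13 tumors that reached 10 counts in 4 or more of them were compared with edgeR 4.0.16 in R 4.3.3 (TMM, robust quasi-likelihood test, no covariate, 2-sided, Benjamini-Hochberg over all tested genes). Summed tumor totals are the depth, and bounds use 3 counts per tumor and cover counting error only. Levels per kb and GC content used the longest protein-coding transcript of GENCODE vM21, since GRCm39 annotation was not used here. The GC alternative removed a lowess trend (span 0.3) from each tumor. No Wnt gene shares more than 0.5% of its 100-base words with another gene. Values per tumor are given for called genes and for the best expressed gene of each role, and up to 5 genes at each end of the other pathway genes are named. The Wnt genes, the other lists, and this rule were chosen with earlier results of these data known. GEM2 shares a mouse with GEM3 and GEM7 with GEM8, so counts were also summed per mouse. Other alternatives were other scalings, filters, and dispersions, DESeq2, missing values set to 0, and fits without single tumors. No 2 tumors agree within counting noise (chi-square per gene 13.1 in the closest pair).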

Additional observations from a re-analysis of the deposited data

Results flagged for a closer look

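In 96 groups of tumor values (48 Wnt genes in each of the 2 models), 6 had a single tumor that stood apart from the rest by Dixon's test, or 6.2% where chance gives about 5%. Log2 CPM are used here. Rspo1 was lowest in TP2 at −2.29, with the other Tp-BCC tumors at −1.21 to −1.02, from 2 against 5 to 7 counts. Fzd6 was lowest in TP4 at 4.09 (others 5.70 to 6.02) and Znrf3 was lowest in TP4 at 3.53 (others 4.55 to 4.67). In TP2, Frzb was highest at 7.02 (others 6.53 to 6.61), as was Nkd2 at 5.54 (others 5.01 to 5.03). Lef1 was lowest in GEM6 at 0.35, with the other GEM-BCC tumors at 1.59 to 2.40.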

How the results depend on the processing

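The fold changes of the 11 called Wnt genes did not reverse in any of 25 alternatives (24 for Rspo1). Among Wnt genes that were not called, Wnt5a, Wnt5b, and Wnt6 changed sign with the GC trend removed. Lef1, Tcf7, and Apcdd1 were called in all 25, including the fits without 1 tumor, without TP2 and TP4, and without TP1 and TP3, the last 2 chosen after seeing the data. The 4 Wnt genes lower in Tp-BCC (8.35% of all genes) became 14 by DESeq2 1.42.0 (12.9%), 7 with counts summed per mouse (8.0%), and 14 with the GC trend removed (13.9%), where 5 were lower past the fold threshold (3.6%). The additional genes included Ctnnb1, Porcn, Fzd1, Fzd3, Fzd5, Fzd10, and Wnt2b by both DESeq2 and the GC alternative. The 5 past the fold threshold with the GC trend removed included Notum, at 2 counts or fewer in every Tp-BCC tumor. With a stricter filter (at most 3 tumors under 10 counts), 1 Wnt gene was lower past the fold threshold, where 1.8% of all tested genes were. Without TP2 and TP4, where 5.9% of all genes were higher and 4.5% lower, 4 Wnt genes were higher (2 past the fold threshold), and 5 other pathway genes were higher and 3 lower. Without TP1 and TP3, where 19.1% of all genes were higher and 23.8% lower, 13 Wnt genes were higher and 10 lower (5 past the fold threshold), beside 21 and 14 of the other pathway genes. When single tumors were left out, 4 to 8 Wnt genes were lower, where 4.7% (without TP2) to 9.8% (without GEM3) of all genes were. There were 8 without GEM1 (9.4% of all genes) or without GEM3, and 7 without GEM2 (7.2%), without TP1 (6.3%), or without TP3 (8.6%). The higher Wnt genes then numbered 5 to 8, where 6.1% (without TP2) to 11.9% (without TP3) of all genes were higher. Other pathway genes that were higher numbered 5 (without TP2) to 13, with 7 without TP4 (6.8% of all genes). A fit with the replicate number as a block left 3 Wnt genes higher, 0 lower, 0 lower past the fold threshold, and 1 other pathway gene in each direction, but the numbers only name tumors, since deviations of same-numbered tumors correlated at −0.38 to −0.10 and none correlated best with its own number. In the same block fit 178 genes passed of all tested. The cause was not tested for these changes. Among ligands, Wnt7b passed without GEM2 (adjusted p = 0.0338) and without TP3 (adjusted p = 0.0447). Depth limits Wnt2, Wnt3, Wnt16, Rspo3, Sp5, Notum, and Dkkl1, for which a fold could not be measured.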
